A study of Homo sapiens with 18 samples.

Results

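The caveolins, cavins and flotillins form the membrane-domain scaffolds described here, as 7 genes (CAV1, CAV2, CAVIN1, CAVIN2, CAVIN3, FLOT1 and FLOT2) of the 62703 genes in the files. They were taken by name, and the set was chosen by the measured FLOT1 mRNA level, which was lower in both knockdowns, so the FLOT1 values in those comparisons are given as a description with no test. The other 6 genes came in by name with FLOT1. All samples were MDA-MB-231, a triple-negative human breast cancer cell line, profiled by mRNA sequencing. In the knockdown experiment, cells were infected for 24 h with lentivirus carrying a control shRNA, an shRNA against EZH2 (shEZH2) or an shRNA against E2F1 (shE2F1) and then kept in 2 µg/ml puromycin for 72 h, so the control cells were also infected and selected. In the inhibitor experiment, uninfected cells received GSK126, an inhibitor of the EZH2 methyltransferase, at 1 µM or its solvent DMSO for 72 h. Each of the 5 groups held 2 distinct libraries, each target was depleted with 1 hairpin sequence, and the source of the replicates was not stated, so p-values measure only the spread between these libraries.

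Caveolae are small flask-shaped pits of the plasma membrane. Caveolins insert into the membrane as hairpins and form their inner scaffold, with CAV1 required to build them and CAV2 depending on CAV1 to reach the surface, and cavins coat them from the cytosol, with CAVIN1 required for the coat and CAVIN2 and CAVIN3 modifying its shape and dynamics. Flotillins are related to each other but not to caveolins, and FLOT1 and FLOT2 assemble together into separate cholesterol-rich microdomains that take part in endocytosis and signalling.

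The libraries held between 13198932 and 20055550 gene-assigned expected counts, with shEZH2 replicate 1 the shallowest, and every library held at least 760 counts of each of the 7 genes. The hairpins lowered their targets. EZH2 was at 155 and 183 CPM (counts scaled by TMM to a common library size within each experiment) in control shRNA and at 53.1 and 44.8 in shEZH2, and E2F1 was at 145 and 140 CPM in control shRNA and at 26.2 and 22.7 in shE2F1. E2F1 was also lower in shEZH2, at 63.0 and 32.3 CPM (log2 change −1.59 ± 0.23 SE, adjusted p = 0.000172, edgeR quasi-likelihood test), with the 2 libraries well apart. Of the markers fixed for the line, VIM (1185 to 2860 TPM), CD44 (446 to 659) and AXL (169 to 683) were abundant, whereas SPARC was close to absent (0.38 to 4.26). The hormone receptor genes ESR1 (at most 0.17 TPM) and PGR (0 in all 10 libraries) were absent or nearly so, while ERBB2 (20.0 to 35.6) and EPCAM (12.4 to 37.7) were detected. Some of these markers moved with the knockdowns. VIM was called lower in shEZH2 (log2 change −1.33) and AXL in both knockdowns (−1.83 in shEZH2 and −2.23 in shE2F1). SPARC (−3.83) and EPCAM (−1.24) were called lower in shE2F1, and CDH1, at most 4.5 TPM, was called higher in both (2.23 and 3.91). Their part in the results on the 7 genes was not tested.

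Caveolae are plentiful in endothelium, fat and muscle, so markers of other cells were checked. The 10 markers of endothelial, adipocyte, muscle and white blood cells summed to 0.81 and 0.89 TPM in control shRNA, 1.14 and 1.79 in shEZH2, 1.07 and 1.42 in shE2F1, 0.83 and 1.31 in DMSO and 1.49 and 2.57 in GSK126. LEP was at 0 in all 10 libraries and ADIPOQ in 9, and VWF, the endothelial marker that was called higher in both knockdowns, reached at most 1.11 TPM. In bulk RNA, fewer cells of a type and less RNA per cell cannot be told apart.

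The 7 genes lie on 5 chromosomes of GRCh38. CAV2 (ENSG00000105971, chr7:116287380-116508541, plus strand) and CAV1 (ENSG00000105974, chr7:116524994-116561179, plus strand) are neighbours, with RefSeq starts 25271 bases apart. FLOT2 (ENSG00000132589, chr17:28879335-28897733, minus) and CAVIN1 (ENSG00000177469, chr17:42402449-42423256, minus) share chromosome 17. CAVIN2 (ENSG00000168497, chr2:191834310-191847088, minus), CAVIN3 (ENSG00000170955, chr11:6318946-6320532, minus) and FLOT1 (ENSG00000137312, chr6:30727709-30742732, minus) each stand alone. CAVIN2 shares 238 exonic bases with the opposite-strand gene CAVIN2-AS1, which reached at most 1.73 TPM, and CAVIN3 shares 571 with an opposite-strand lncRNA at up to 0.68 TPM. The estimated uncertainty of read assignment to the gene was 0 for all 7 genes in every library. It does not cover the split of reads among the transcripts of a gene.

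The starts of these genes differ in base composition, which was not related here to the changes in mRNA level. Promoter windows from RefSeq (GRCh38.p14, 250 bases before to 50 after a start) matched 5 of the 7 genes by symbol, all but CAVIN1 and CAVIN3. The 30 bases just before the outermost start of 4 of them are shown 5′ to 3′ on the gene's strand, with CG dinucleotides in capitals, to show the range among them. Of these 4, CAV2, FLOT1 and FLOT2 have between 3 and 6 there and CAVIN2 has none.
CAV2 (chr7:116499708-116499737, plus): gggaaggggaggcCGCGCGgacCGggagcc
CAVIN2 (chr2:191847089-191847118, minus): ctttaagagcagctggaatgcagttcccct
FLOT1 (chr6:30742688-30742717, minus): ggtgcttagtcCGttgCGgggggCGgggtc
FLOT2 (chr17:28897734-28897763, minus): ctcaaCGCGcCGgcccCGccctcCGcCGcc

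Because E2F1 was a target of the study, the windows were also searched for the E2F words TTTCCCGC, TTTCGCGC, TTTGCCGC and TTTGGCGC on both strands, none of which is the reverse complement of another. None of the 8 windows of the 5 genes held these letters, against 3.31% of all 35116 windows. That says only that these letters are not in these windows.

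Among the 7 genes, CAV1 had the highest length-normalized level in control cells. In control shRNA, the mean levels were 985 TPM for CAV1 (± 51.0 SD, n = 2), 557 for CAVIN1 (± 9.94), 240 for CAV2 (± 10.3), 234 for CAVIN3 (± 66.3), 227 for FLOT1 (± 15.9), 74.5 for FLOT2 (± 8.64) and 34.4 for CAVIN2 (± 3.8). CAV2, CAVIN3 and FLOT1 could not be ordered, since their single libraries overlapped (233 to 248, 187 to 281 and 216 to 238 TPM). CAV1 ranked above CAVIN1 in all 6 control shRNA, DMSO and GSK126 libraries and below it in all 4 knockdown libraries.

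**Figure D1:**
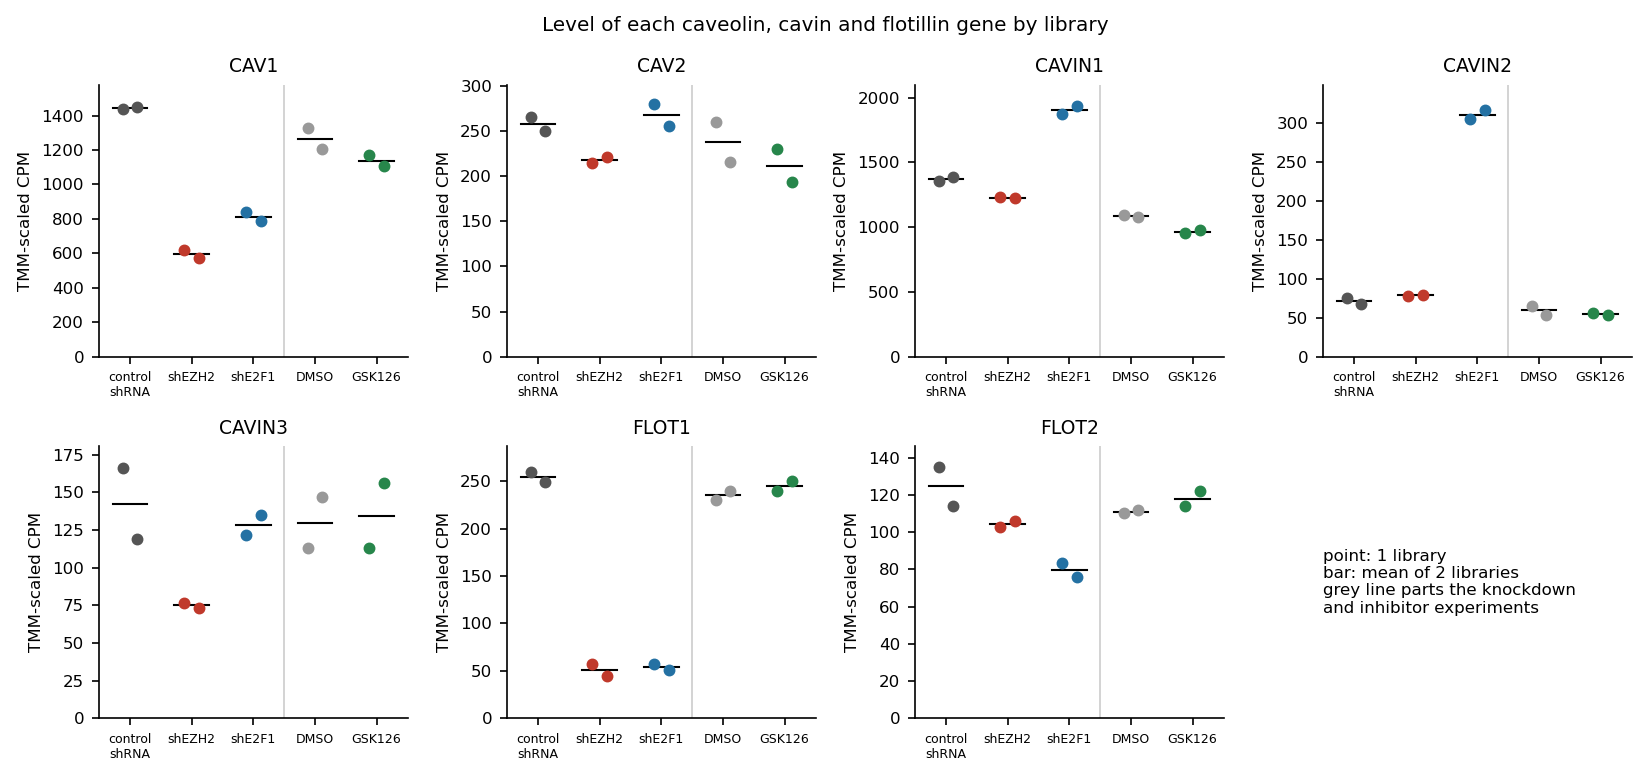
TMM-scaled CPM, set within each experiment, of the 7 genes (y axes from 0) in each library, by group; points are libraries and bars the mean of 2. FLOT1 sits between 44.9 and 57.7 CPM in the 4 knockdown libraries against 260 and 249 in control shRNA, and CAVIN2 is at 305 and 317 in shE2F1 against 75.6 and 68.0.

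A gene was called changed at an adjusted p below 0.01 and a change of more than 2-fold, with p-values adjusted over all genes tested. All 7 genes passed the filter on low counts. In shEZH2 against control shRNA, 7.52% of the 15373 genes tested were called higher and 10.7% lower. In shE2F1 against control shRNA, 5.60% were called higher and 5.96% lower. The 2 comparisons share the control libraries, so a gene's values in them are not independent.

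CAV1 fell in shEZH2. It stood at 1436 and 1447 CPM in control shRNA, at 617 and 574 in shEZH2 and at 838 and 786 in shE2F1. The 3 groups did not overlap, and shEZH2 was the lowest. The log2 change was −1.27 ± 0.09 (SE) in shEZH2 (adjusted p = 2.7e-06, called). In shE2F1 it was −0.83 ± 0.09 (adjusted p = 3.8e-05), which is short of 2-fold and was not called. The knockdowns differed from each other by −0.45 ± 0.09 for CAV1 (adjusted p = 0.00125), again under 2-fold.

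CAV2 changed less than CAV1 in each knockdown, although the genes are adjacent. It was at 265 and 250 CPM in control shRNA, 214 and 221 in shEZH2 and 280 and 256 in shE2F1. The shEZH2 libraries were below the control libraries and the shE2F1 libraries overlapped them. The log2 changes were −0.24 ± 0.09 (adjusted p = 0.0367) and 0.06 ± 0.09 (95% interval −0.14 to 0.25, adjusted p = 0.612), and neither was called. When GC and length were corrected for, the CAV2 change in shEZH2 was −0.37 (adjusted p = 0.00721), still under 2-fold. CAV1 made up 80.5% and 80.3% of the summed caveolin TPM in control shRNA, 74.3% and 73.1% in shEZH2 and 67.4% and 67.0% in shE2F1.

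The order of the knockdowns in that share depends on the unit. RSEM's abundance-weighted transcript length of CAV2 was 1685 and 1611 bases in control shRNA, 2180 and 2236 in shEZH2 and 1583 and 1532 in shE2F1, and TPM divides by it. The shEZH2 libraries lay above all 8 others, which ran up to 1909 bases. With CPM in place of TPM, the CAV1 share was 74.2% and 72.3% in shEZH2 and 74.9% and 75.4% in shE2F1, so the groups lay closer together than in TPM and in the opposite order. CAV1 itself kept a weighted length between 2149 and 2228 bases.

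Among the cavins, CAVIN2 rose in shE2F1 and CAVIN1 and CAVIN3 were not called. CAVIN2, a coat component that binds phosphatidylserine, was at 75.6 and 68.0 CPM in control shRNA, at 78.8 and 80.0 in shEZH2 and at 305 and 317 in shE2F1. The shE2F1 libraries stood far above the 4 others of that experiment. The log2 change was 2.11 ± 0.09 in shE2F1 (4.32-fold, adjusted p = 4.46e-07) and 0.14 ± 0.09 in shEZH2 (95% interval −0.06 to 0.35, adjusted p = 0.207). CAVIN2 accordingly held 13.2% and 13.1% of the summed cavin TPM in shE2F1, against 4.20% and 4.12% in control shRNA and 5.69% and 5.84% in shEZH2.

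CAVIN1, which encodes the obligatory coat protein, was at 1356 and 1389 CPM in control shRNA, 1231 and 1226 in shEZH2 and 1870 and 1933 in shE2F1. The shE2F1 libraries were the highest of the 6, with a log2 change of 0.47 ± 0.08 (adjusted p = 0.00116) that did not reach 2-fold. In shEZH2 the change was −0.16 ± 0.08 (adjusted p = 0.13). Only 1 transcript of 3570 bases is annotated for CAVIN1 and 1 of 3054 bases for CAVIN2, so transcript mix cannot enter their values.

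CAVIN3, a cavin that binds protein kinase C delta, was at 166 and 119 CPM in control shRNA, 76.8 and 73.2 in shEZH2 and 122 and 135 in shE2F1. Both shEZH2 libraries were below the 4 others of the experiment, while the control libraries were far apart and enclosed the shE2F1 values. The log2 change in shEZH2 was −0.93 ± 0.14 (adjusted p = 0.000284), just short of 2-fold, and in shE2F1 −0.15 ± 0.14 (95% interval −0.46 to 0.15, adjusted p = 0.392). Without control shRNA replicate 2 it was −1.14 and called in shEZH2. The longest CAVIN3 transcript has a GC content of 66.7%, higher than in 98.7% of genes with a mean of at least 50 counts. Across all genes, the change in shEZH2 ran with GC content (r = −0.24 over genes, which are not independent, against −0.02 in shE2F1). When GC and length were corrected for, the CAVIN3 change in shEZH2 was −0.31 (adjusted p = 0.0293), while that of CAV1 was −1.31 (adjusted p = 1.4e-06).

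**Figure D2:**
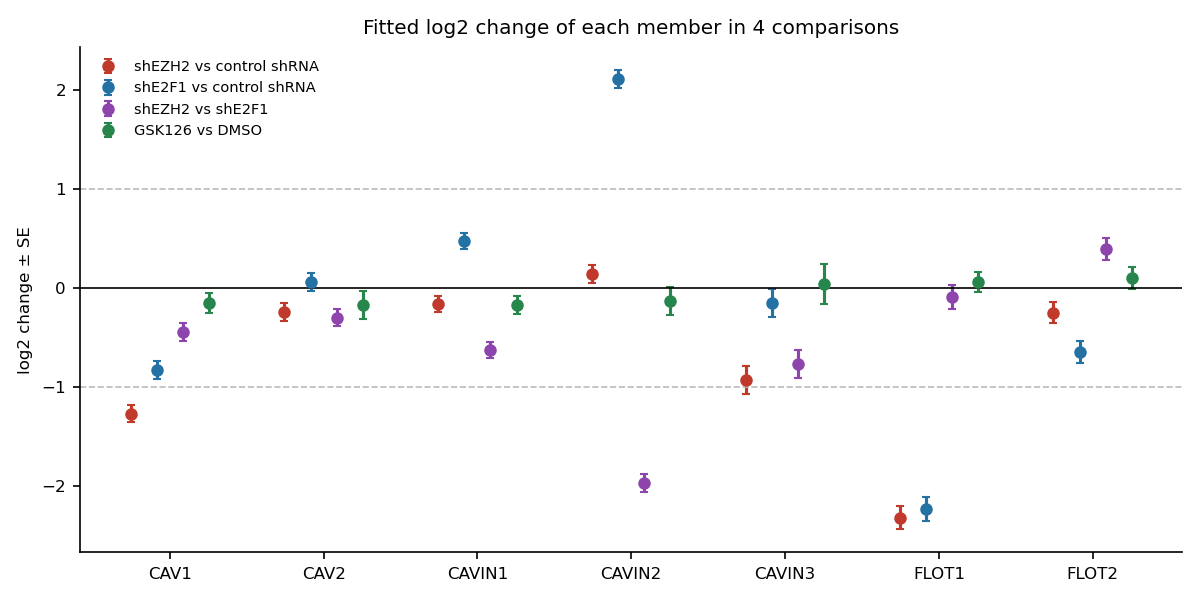
Fitted log2 change (y axis) of the 7 genes in 4 comparisons, with bars of 1 SE and dashed lines at 2-fold. CAVIN2 reaches 2.11 in shE2F1, FLOT1 lies near −2.3 in both knockdowns, and all 7 green points (GSK126) lie between −0.17 and 0.10.

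FLOT1 was the member by whose level the set was chosen. It was at 260 and 249 CPM in control shRNA, 57.7 and 44.9 in shEZH2 and 57.5 and 51.2 in shE2F1. All 4 depleted libraries were far below both control libraries. The fitted log2 change was −2.32 ± 0.12 in shEZH2 and −2.23 ± 0.12 in shE2F1, or 0.201 and 0.213 times the control level. Corrected for GC and length, the shEZH2 value was −1.94.

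FLOT1 mRNA also had a shorter weighted transcript length in the knockdowns. It was 1722 bases in both control shRNA libraries, 1465 and 1351 in shEZH2, 1575 and 1594 in shE2F1 and between 1717 and 1758 in the inhibitor experiment. The gene has 12 annotated transcripts of 457 to 1866 bases, 7 of them protein coding. In TPM, FLOT1 was somewhat less reduced, at 71.4 and 59.2 in shEZH2 and 63.5 and 58.0 in shE2F1. The control shRNA libraries were at 238 and 216 TPM and those of the inhibitor experiment at 214 to 241. The change of unit also moved CAVIN1, which has 1 annotated transcript. The CAVIN1 log2 change was −0.16 in shEZH2 and 0.47 in shE2F1 as fitted, and 0.04 and 0.67 in TPM. How much of the FLOT1 shift goes with its length was not tested.

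FLOT2, its partner, was at 135 and 114 CPM in control shRNA, 103 and 106 in shEZH2 and 83.4 and 75.7 in shE2F1. In CPM the 3 groups did not overlap, and shE2F1 was the lowest. In TPM the shEZH2 libraries (69.4 and 69.9) lay between the control libraries (80.6 and 68.3). The log2 change was −0.65 ± 0.11 in shE2F1 (adjusted p = 0.000627, under 2-fold) and −0.25 ± 0.11 in shEZH2 (adjusted p = 0.0627). With the GC and length correction, the FLOT2 change in shEZH2 was 0.13. FLOT1 held 74.7% and 75.9% of the summed flotillin TPM in control shRNA, 50.7% and 45.9% in shEZH2 and 54.6% and 48.9% in shE2F1. In CPM the share was 65.8% and 68.7% in control shRNA, 36.0% and 29.7% in shEZH2 and 40.8% and 40.4% in shE2F1. The summed flotillin level was 319 and 284 TPM in control shRNA, 141 and 129 in shEZH2 and 116 and 119 in shE2F1.

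**Figure D3:**
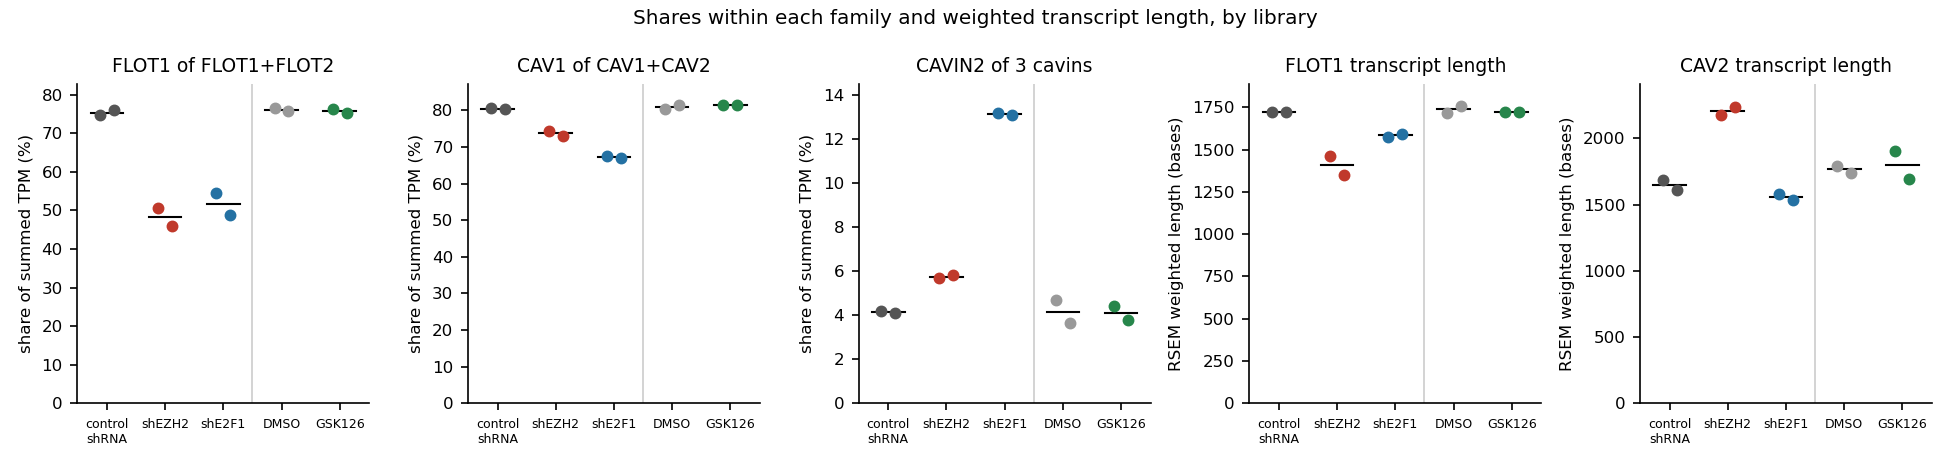
Shares of FLOT1, CAV1 and CAVIN2 in the summed TPM of their family (left 3 panels, percent) and RSEM weighted transcript lengths of FLOT1 and CAV2 (right 2 panels, bases), by library, with bars at the mean of 2. FLOT1 holds 45.9 to 54.6% in the 4 depleted libraries and 74.7% or more in the other 6.

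The shEZH2 and shE2F1 libraries were compared directly. The choice of FLOT1 used its level in these same libraries, so its difference is given as a description with no test. Over all genes, 10.4% were called higher in shEZH2 than in shE2F1 and 12.9% lower. Of the 7 genes, CAVIN2 was called, at −1.97 ± 0.09 (adjusted p = 1.63e-07), being lower in both shEZH2 libraries. For FLOT1 the difference was −0.09 ± 0.12, with a 95% interval from −0.36 to 0.18. FLOT1 changed sign with the GC and length correction (0.35), so no order of the knockdowns can be read for it. CAVIN1 was lower in shEZH2 by −0.63 ± 0.08 (adjusted p = 8.95e-05) and FLOT2 was higher by 0.39 ± 0.11 (adjusted p = 0.00807), both under 2-fold. With the correction these were −0.30 (adjusted p = 0.0228) and 0.76 (adjusted p = 3.13e-05). The CAVIN3 difference of −0.77 ± 0.14 (adjusted p = 0.000786) became −0.02 with the correction.

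The inhibitor experiment asked whether blocking the methyltransferase does what depletion does. None of the 7 genes was called with GSK126, and 0% of the 14632 genes tested were called (577 at an unadjusted p below 0.05, 10 called with DESeq2, and 37 to 43 on leaving out 1 library). FLOT1 was at 230 and 240 CPM in DMSO and 240 and 250 in GSK126, a log2 change of 0.06 ± 0.10 (95% interval −0.19 to 0.30). CAV1 was at 1326 and 1203 CPM in DMSO and 1172 and 1105 in GSK126, a change of −0.15 ± 0.10 (95% interval −0.39 to 0.08). CAV1 was lower in GSK126 in both libraries, FLOT1 groups met at 240, and the intervals of both exclude a 2-fold change. For the other 5 genes the changes lay between −0.17 and 0.10, and every adjusted p was 1 in this fit, which had no replicate block. With a block, a fit with 1 residual degree of freedom, 68 genes were called and no member was. In that fit CAV1, CAV2 and CAVIN1 passed the p threshold, at changes far under 2-fold. The labels do not say that a replicate number marks a shared batch. CAVIN3 had the widest interval, −0.43 to 0.52, and its libraries spread from 113 to 156 CPM within GSK126.

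The effect of shEZH2 was then set against that of GSK126 in a fit of all 10 libraries, where 5.13% of 15773 genes were called higher and 8.67% lower. CAV1 was called, with a difference of −1.11 ± 0.14 (adjusted p = 0.000129). For CAVIN3 it was −0.96 ± 0.26 (adjusted p = 0.0132), and −0.33 (adjusted p = 0.0781) with the GC and length correction. FLOT1 is described without a test, at −2.36 ± 0.17. CAV2, CAVIN1, CAVIN2 and FLOT2 had differences between −0.34 and 0.28, with adjusted p from 0.114 to 0.901. Infection and selection apply to the knockdown experiment alone, and any interplay with the hairpin cannot be told apart from it here.

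Lists of genes that work with caveolins and flotillins were drawn from textbook roles, but with earlier results of these data known. They hold 70 genes in 8 lists, of which 63 were tested in the knockdown fit. In shEZH2, 7 were called higher and 13 lower. In shE2F1, 4 were called higher and 6 lower, and with GSK126 none was called in either direction. The shares over all genes tested were 7.52% higher and 10.7% lower in shEZH2, and 5.60% and 5.96% in shE2F1. The counts of each list below are to be read beside these shares. The median change of all genes was −0.02 in shEZH2 and 0 in shE2F1, against which the list medians are given.

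Among the caveola coat and neck partners, 10 of 11 genes were tested, 3 were called lower in shEZH2 and 2 in shE2F1, and none was called higher. The list median was −0.04 in shEZH2 and −0.38 in shE2F1. Of the EH-domain ATPases at the neck, EHD1 was at 657 and 589 CPM in control shRNA, 668 and 698 in shEZH2 and 289 and 271 in shE2F1, where it fell (log2 change −1.16 ± 0.09, adjusted p = 6.26e-06). The knockdowns differed directly for EHD1 (1.29 ± 0.09, adjusted p = 1.34e-06, called). EHD2, which confines caveolae to the surface, fell in shE2F1 (−1.08 ± 0.11, adjusted p = 2.37e-05; −0.94 and not called without control shRNA replicate 1) and was −0.53 ± 0.11 in shEZH2 (adjusted p = 0.00156, under 2-fold), a difference of 0.55 that was not called. EHD4 was called in neither (0.73 and −0.17). FLNA, the actin crosslinker that ties caveolae to stress fibres, fell in shEZH2 from 5800 and 5398 CPM to 2454 and 1503 (−1.50 ± 0.18, adjusted p = 5.6e-05). PACSIN3, a membrane-bending F-BAR protein, fell there too (−1.10 ± 0.16, adjusted p = 0.00017), though its change was −0.56 and not called with the GC and length correction. PACSIN1 was also called lower in shEZH2, from at most 1.56 CPM, a call that 4 of its 13 alternative settings lost.

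The flotillins belong to the SPFH family, and 7 of 9 relatives were tested. STOML2, a mitochondrial stomatin-like protein, fell in shEZH2 (−1.10 ± 0.10, adjusted p = 1.04e-05), a call lost with the GC and length correction (−0.81). In shE2F1, ERLIN1 of the endoplasmic reticulum fell (−1.25 ± 0.11, adjusted p = 1.08e-05) and STOM rose from 16.7 and 16.1 CPM to 56.5 and 47.4 (1.67 ± 0.16, adjusted p = 1.81e-05). The list median was 0.04 in shEZH2 and −0.46 in shE2F1. Of 5 tested flotillin partners, 2 were called higher in shEZH2 and 1 lower in shE2F1. The sorbin-domain adaptor SORBS2 rose in shEZH2 (1.3 ± 0.28, adjusted p = 0.00254) and was called lower in shE2F1 (−1.23 ± 0.32, adjusted p = 0.00988). The median of the 5 was 0.22 in shEZH2 and −0.37 in shE2F1. SORBS2 was low, at most 11.5 CPM in any library, and leaving out control shRNA replicate 1 took SORBS2 in shE2F1 to −0.64 (adjusted p = 0.102). None of the 5 tyrosine kinases that phosphorylate these scaffolds, such as SRC and FYN, was called (medians 0.27 and 0.11). SORBS2 in shEZH2 was 0.90 and not called without control shRNA replicate 2.

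Of 9 tested receptors and enzymes found in caveolae, 2 were called higher and 2 lower in shEZH2 and none in shE2F1 (medians −0.09 and 0.13). IGF1R rose from 32.7 and 30.1 CPM to 112 and 140 in shEZH2 (2.01 ± 0.13, adjusted p = 1.74e-06) and TGFBR1 rose by 1.27 ± 0.12 (adjusted p = 1.04e-05; 0.98 and not called with the GC and length correction). NOS3, the nitric oxide synthase that CAV1 binds, was called lower from at most 2.21 CPM, a call lost in 3 of 13 alternative settings, and PDGFRB was called lower at −1.16 ± 0.32 (adjusted p = 0.00965), a call that 8 of its 14 alternative settings lost.

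Of 8 tested GPI-anchored and raft proteins, 1 was called higher and 1 lower in shEZH2, and 2 higher and 1 lower in shE2F1 (medians 0.07 and 0.12). The complement regulator CD55 rose in shE2F1 from 201 and 179 CPM to 658 and 606 (1.74 ± 0.10, adjusted p = 1.42e-06), and the raft protein MAL2 rose from 1.56 and 1.64 CPM to 10.2 and 10.9 (2.72 ± 0.25, adjusted p = 1.36e-05). PLAUR, the urokinase receptor, fell there (−1.10 ± 0.12, adjusted p = 3.8e-05; −0.91 and not called without control shRNA replicate 2).

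All 8 genes of cholesterol and sphingomyelin supply were tested, and in shEZH2 4 were called lower and 1 higher (list median −0.33). In shE2F1 1 was called lower and none higher (median 0.40). The cholesterol exporter ABCA1 was lower in both knockdowns (−1.47 ± 0.28 and −1.24 ± 0.27, called in each), but its control libraries were at 113 and 51.3 CPM, and without control shRNA replicate 1 the changes were −0.79 and −0.57 and were not called. The exporter ABCG1 was at 3.33 and 1.46 CPM in control shRNA and at 0.0759 and 0 in shEZH2, where a count of 0 allows up to 0.17 CPM. Among 11 clathrin coat genes, taken for comparison, 1 was called higher and 2 lower in shEZH2 and 1 higher in shE2F1 (medians 0.05 and 0.20). The clathrin adaptor DAB2 was the one called higher, in shEZH2 (1.36 ± 0.12, adjusted p = 7.39e-06) and in shE2F1 (1.98 ± 0.12, adjusted p = 1.23e-06).

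**Figure D4:**
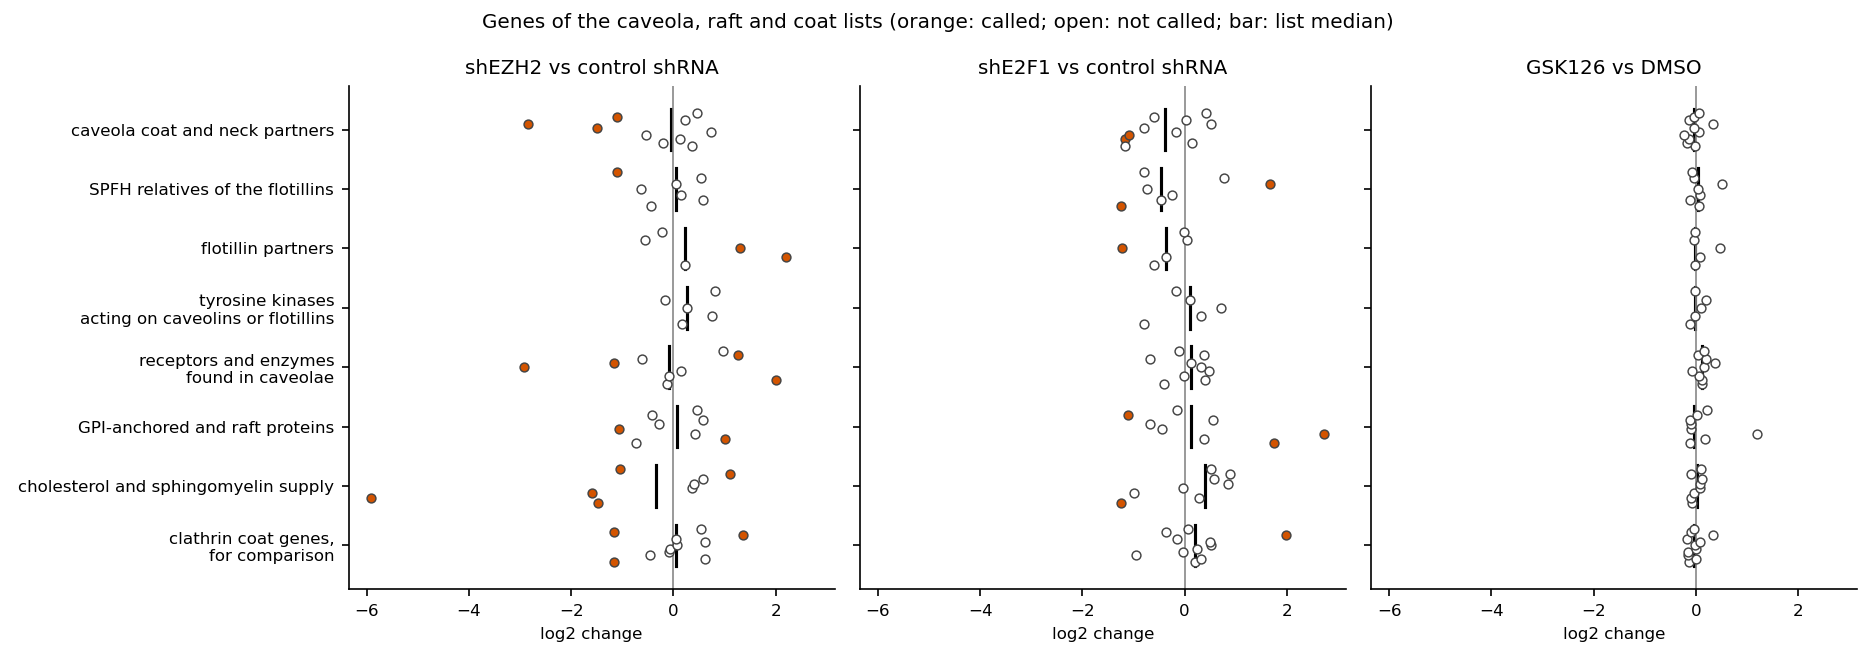
Log2 change (x axis) of each tested list gene in 3 comparisons, in rows by list; orange points are called genes, open points are not, and bars are list medians. Called genes appear in both knockdown panels (20 in shEZH2, 10 in shE2F1) and none with GSK126; the point at −5.92 is ABCG1, a fitted value from a group at 1 and 0 counts.

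FLOT1 was also set beside its neighbours on chromosome 6. Of 19 tested genes that start within 250 kb of FLOT1, 1 was called higher and 1 lower in shEZH2, and 1 was called higher in shE2F1. Over all genes tested, 7.52% were called higher and 10.7% lower in shEZH2, and 5.60% higher and 5.96% lower in shE2F1. With so few neighbours, the counts are not set apart from these shares. IER3, an immediate early response gene that starts 2 kb from FLOT1, was at 263 and 266 CPM in control shRNA, 447 and 627 in shEZH2 and 346 and 318 in shE2F1. Its change in shEZH2 was 1.02 ± 0.14 (adjusted p = 0.000117), opposite to FLOT1, and in shE2F1 0.33 ± 0.14 (adjusted p = 0.0718). Without shEZH2 replicate 2 the change of IER3 was 0.77 and was not called. PRR3 was called lower in shEZH2 (−1.41 ± 0.16, adjusted p = 3.4e-05) and MDC1, a mediator of the DNA damage checkpoint, was called higher in shE2F1 (1.03 ± 0.10, adjusted p = 2.31e-05; 0.91 and not called without shE2F1 replicate 2). Around CAV1, none of 5 tested neighbours was called in either knockdown, the MET receptor gene included (0.88 ± 0.10 in shEZH2, under 2-fold). Around CAVIN1, 3 of 17 were called higher and 6 lower in shEZH2, and 3 higher in shE2F1. In shEZH2, CAV2 had 1 higher and 1 lower of 6, CAVIN3 1 and 2 of 9, and FLOT2 1 and 1 of 12. In shE2F1, 1 was called lower around FLOT2 and none around CAV2 or CAVIN3. The 1 neighbour of CAVIN2 was not called. Whether these counts differ from the shares was not tested.

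**Figure D5:**
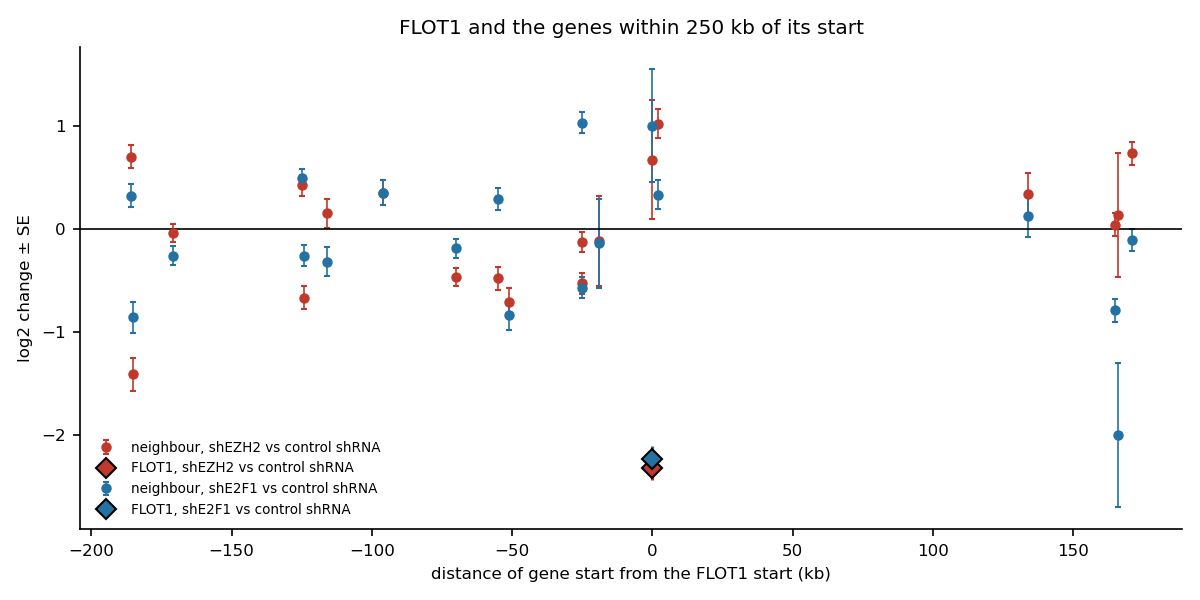
Log2 change ± SE (y axis) of FLOT1 (diamonds) and of its 19 tested neighbours (circles) against the distance of their starts from the FLOT1 start (x axis, kb), in shEZH2 (red) and shE2F1 (blue). FLOT1 lies near −2.3 while IER3, 2 kb away, is at 1.02 in shEZH2.

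The 5 genes whose log2 CPM, here scaled over all 10 libraries together, followed FLOT1 most closely, of 9287 protein-coding genes with a mean of at least 200 counts, were TGFB1I1 (r = 0.998), CEP41 (0.996), SCMH1 (0.991), STK40 (0.990) and SRF (0.990). These correlations are a description, since the libraries of a group share their treatment and those of an experiment their handling. They also include the fall of FLOT1 in both knockdowns, by which the set was chosen. TGFB1I1, which encodes the focal adhesion adaptor HIC-5, was at 42.3 and 37.5 CPM in control shRNA, 8.73 and 6.63 in shEZH2 and 8.89 and 7.66 in shE2F1. SRF, the serum response factor, was at 91.0 and 101 CPM, 38.2 and 29.6, and 31.5 and 30 in the same order. Over the same libraries the other members had r with FLOT1 of 0.94 (CAV1), 0.78 (FLOT2), 0.64 (CAVIN3), −0.04 (CAV2), −0.61 (CAVIN1) and −0.70 (CAVIN2).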

How the data were processed

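Gene-level RSEM tables were deposited for 18 sample records of MDA-MB-231 mRNA from directional libraries, of which 8 repeat another record exactly, leaving 10 distinct libraries in 5 groups of 2. The authors aligned reads with STAR and quantified them with RSEM against Ensembl 108 (GRCh38); the submitters' processing notes give STAR 2.7.2b and RSEM 1.3.1, and the strand setting of the counting was not given in the sources used here. The deposited expected counts (estimated counts, not normalized) were rounded for tests, and the deposited TPM values served for levels between genes. The authors' RSEM weighted transcript length and the posterior SD of the count were used as deposited. Gene symbols and coordinates were taken from GENCODE 44, a later release than the authors', where 62625 of 62703 gene IDs were found.

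Differential expression was tested with edgeR 4.0.16 in R 4.3.3 (filterByExpr, TMM, quasi-likelihood F-test, Benjamini-Hochberg over all genes). The 6 knockdown libraries were fitted together, the 4 inhibitor libraries apart, and all 10 for the difference of effects. CPM was scaled within each experiment, so CPM levels are not compared across them, other than for likeness to FLOT1, which used CPM scaled over all 10 libraries. The thresholds were those of the study. Intervals are 95% intervals of the fit. The code was tested on simulated data.

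The members and gene lists were chosen with earlier results of these data known. Named list genes were those called, largest changes first, from fixed lists; neighbours started within 250000 bases. Alternatives were DESeq2 1.42.0, its size factors, no filter on low counts or a mean of at least 50, only the compared libraries or all 10, a replicate block, splines on GC content and log length, an adjusted p below 0.05 with no fold limit, leaving out each library, and TPM in place of CPM. Some items are not reported here.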

Additional observations from a re-analysis of the deposited data

Results flagged for a closer look

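CAVIN2 was picked out because its response differed between the knockdowns by a direct test. The log2 difference of shEZH2 from shE2F1 was −1.97 ± 0.09 (adjusted p = 1.63e-07, edgeR quasi-likelihood test), with both shE2F1 libraries (305 and 317 CPM) above both shEZH2 libraries (78.8 and 80.0). Over its 14 alternatives the difference ranged from −2 to −1.94 and was called in each.

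CAV1 was picked out because depletion and inhibition of EZH2 differed for it. The effect of shEZH2 minus that of GSK126 was −1.11 ± 0.14 on the log2 scale (adjusted p = 0.000129), and both shEZH2 libraries were below both control shRNA libraries. Over its 16 alternatives the difference ranged from −1.17 to −1.06 and was called in each. Control shRNA cells were infected and selected too, and any interplay of these steps with the hairpin cannot be told apart here.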

How the results depend on the processing

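With adjusted p below 0.05 and no fold limit, the genes called numbered 8550 in shEZH2, 6879 in shE2F1 and 9267 between the knockdowns. Each of these is out of 15373 genes tested. For the shEZH2 effect minus that of GSK126 they numbered 5780 of 15773. Of the 7 members, 4 were past this threshold in shEZH2, 5 in shE2F1 and 6 between the knockdowns. With so few members, these counts are not set apart from the large share of all genes past it. The 4 and the 5 include FLOT1, by which the set was chosen, so they are a description and not a tally of tests. The tested members past it were CAV1, CAV2 and CAVIN3 in shEZH2. In shE2F1 they were CAV1, CAVIN1, CAVIN2 and FLOT2. GSK126 had 10 genes called with DESeq2, 68 with the replicate block, 86 with the block and the GC and length correction, and 37 to 43 on leaving out 1 library, with no member called in any. For the difference of effects the leave-one-out range was 1305 to 2414, the lowest without shEZH2 replicate 2.

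The labels do not say that a replicate number marks a shared batch. Same-numbered libraries of DMSO and GSK126 deviated together (r = 0.69 over genes), a hint of pairing from the data, and those of the knockdown groups hardly did (0.04, 0.05 and 0.15). The replicate block changed no call of a member. With it, CAV1 (−0.15, adjusted p = 9.7e-06), CAV2 (−0.17, 0.000438) and CAVIN1 (−0.17, 1.56e-06) passed the p threshold in GSK126 at far under 2-fold, in a fit with 1 residual degree of freedom.

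Directions that turned were of small changes. With the GC and length correction, without and with the block, CAVIN1 in shEZH2 was 0.22 and 0.22, FLOT2 in shEZH2 0.13 and 0.14, CAV2 in shE2F1 0 and 0, FLOT1 between the knockdowns 0.35 and 0.34, and FLOT2 in the difference of effects 0.08 and 0.08. On leaving out each library in turn, CAVIN3 in shE2F1 ranged from −0.37 to 0.10 (above 0 without control shRNA replicate 1), CAV2 in shE2F1 from −0.01 (without shE2F1 replicate 1) to 0.12, FLOT1 between the knockdowns from −0.27 to 0.09 (without shEZH2 replicate 2), CAVIN2 in GSK126 from −0.25 to 0.02 (without DMSO replicate 1) and CAVIN3 in GSK126 from −0.20 (without GSK126 replicate 2) to 0.26, also below 0 (−0.13) without DMSO replicate 1. In the difference of effects CAV2 ranged from −0.19 to 0.06 (above 0 without DMSO replicate 2 or GSK126 replicate 1) and CAVIN1 was 0 without control shRNA replicate 1. A lone library of a group was assumed to vary like the other groups. In TPM, CAVIN1 in shEZH2 was 0.04. The cause was not tested. CAV1 and CAVIN2 kept each of their calls. CAVIN3 was called in the difference of effects (−1.18) without control shRNA replicate 2, DMSO replicate 2 or GSK126 replicate 1, but was −0.33 with the GC and length correction and −0.70 without control shRNA replicate 1, not called in either. Of 500 alternative values of the other named genes, 57 lost the call and none turned.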
